A study of Homo sapiens with 6 samples.

Results

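The miR-148 and miR-152 family is a group of miRNAs with one shared seed, the stretch of bases by which a miRNA pairs with its target mRNAs. The members are hsa-miR-148a-3p, hsa-miR-148b-3p and hsa-miR-152-3p, taken by name from a table of 471 miRNA rows, and all 3 were present. Each also passed the filter on low counts, as did 105 rows in all. They were measured by small RNA sequencing of extracellular vesicles (EVs), the membrane-bound particles that cells release, from the culture medium of Cal27 spheroids on day 14. Cal27 is a human oral squamous cell carcinoma line. The spheroids were grown by liquid overlay in growth factor reduced Matrigel, a basement membrane extract from a mouse tumour, at 3 mg/mL (soft, giving EVsoft) or 12 mg/mL (stiff, giving EVstiff), and the medium of both groups held bovine serum depleted of EVs. Both groups came from the same unmodified cell line, and each group had 3 libraries labelled as biological replicates, which the methods describe as separate isolations from repeated cultures. The EVs were isolated by insulator-based dielectrophoresis, which holds particles in an electric field gradient. Stiffness was set by the amount of Matrigel, so the amount of matrix protein and its stiffness cannot be told apart in this design. The table names human miRNAs, and a read of a mouse or bovine miRNA with the same sequence would count as human.

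A miRNA guides the Argonaute protein to mRNAs that carry a match to its seed, and those mRNAs are then repressed. The miR-148 and miR-152 family is known for repressing DNMT1, the maintenance DNA methyltransferase, and HLA-G, a non-classical MHC molecule. The genes of miR-148a and miR-152 are themselves silenced by DNA methylation in several cancers. In normal tissue miR-148a-3p is abundant in the liver and pancreas. The comparison of EVsoft with EVstiff asks whether matrix stiffness goes with a change in the RNA that spheroids load into EVs, here in all miRNAs that read one seed.

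The mature sequences are shown because the finding turns on a seed that the members share and on the few bases by which their reads can be told apart. Sequences and positions are those of RefSeq on GRCh38.p14, 5′ to 3′, with the seed (bases 2 to 8) in capitals.
hsa-miR-148a-3p: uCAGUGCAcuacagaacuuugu
hsa-miR-148b-3p: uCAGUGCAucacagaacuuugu
hsa-miR-152-3p: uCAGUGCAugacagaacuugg
Counted from 1 at the 5′ end, the substitutions from miR-148a-3p to miR-148b-3p are C9U and U10C. Those from miR-148a-3p to miR-152-3p are C9U, U10G and U20G, and those from miR-148b-3p to miR-152-3p are C10G and U20G. The members were thus identical at 20 of 22 bases (miR-148a-3p and miR-148b-3p), 18 of 21 (miR-148a-3p and miR-152-3p) and 19 of 21 (miR-148b-3p and miR-152-3p), with every difference outside the seed. Of the 2370 mature miRNAs in the RefSeq table, 3 had this seed at bases 2 to 8, and these were the 3 members. How the authors' counting assigned a read that fits more than 1 member is not given in the sources used here.

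Each member comes from its own hairpin on its own chromosome. The hairpins are shown with the mature 3p arm in capitals, to place the counted arm in each.
MIR148A: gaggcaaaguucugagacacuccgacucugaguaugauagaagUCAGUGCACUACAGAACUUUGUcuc
MIR148B: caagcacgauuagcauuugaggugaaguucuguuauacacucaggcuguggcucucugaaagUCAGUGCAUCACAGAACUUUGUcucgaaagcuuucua
MIR152: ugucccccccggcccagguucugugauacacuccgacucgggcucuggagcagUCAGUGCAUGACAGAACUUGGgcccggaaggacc
MIR148A lies on the minus strand at chr7:25949919-25949986, in an intron of the lncRNA gene ENSG00000270933 (GENCODE 44, GRCh38). MIR148B lies on the plus strand at chr12:54337216-54337314, in an intron of COPZ1 and of the lncRNA gene ENSG00000258344 on the same strand. MIR152 lies on the minus strand at chr17:48037161-48037247, in an intron of COPZ2. COPZ1 and COPZ2 are paralogous genes for the zeta subunit of the coatomer, the coat of vesicles that move between the Golgi and the endoplasmic reticulum. No annotated exon of these host genes overlapped a hairpin.

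The total miRNA count of a library ranged from 28688 to 66345, and every EVsoft library had a larger total than every EVstiff library (p = 0.1 by an exact permutation test). These totals are reads counted to miRNAs, not sequencing depth. The methods describe library volumes adjusted to aim at equal reads per sample. All permutation tests here are two-sided, and with 3 libraries in each group 0.1 is the lowest p they can reach. Levels are CPM (reads scaled to a common library total) after TMM normalization, and fold changes are EVstiff over EVsoft. A level therefore says how much of a miRNA there was beside the rest of the miRNA reads, not per EV or per cell, and fewer EVs that carry it cannot be told apart from less of it in each. A count of 0 allows up to 3 reads, equal to 44.2 CPM in the library where a read weighs least and 107 CPM where it weighs most. Such limits and the Wilson intervals below cover counting error only, as PCR copies are not independent molecules. The intervals of log2 fold changes come from the edgeR fit and also take in the spread between replicates. The labelled squamous epithelial origin was checked on miR-205-5p, a miRNA of squamous epithelium, which had between 923 and 2078 reads in every library. Other epithelial miRNAs varied widely, from between 308 and 1750 reads for miR-200c-3p to between 2 and 7 for miR-375.

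One member carried nearly all reads of the family. In EVsoft replicates 1, 2 and 3 miR-148a-3p made up 97.8%, 98.2% and 98.1% of the family's reads, and in the EVstiff replicates 98.5%, 98.4% and 98.7%. It ranked 3 or 4 among all miRNAs in every library. By contrast miR-148b-3p ranked between 81 and 96 and miR-152-3p between 70 and 90. Since the mature forms have 21 or 22 bases, their reads can be compared per length, although how evenly the library preparation captured the 3 sequences was not tested. Per 1000 reads of miR-148a-3p, the EVsoft libraries together held 8.13 reads of miR-148b-3p and 11.7 of miR-152-3p, and the EVstiff libraries 6.51 and 8.31. The order of levels was thus miR-148a-3p, then the other two, which were not separated. The reads of miR-152-3p exceeded those of miR-148b-3p in the 3 EVsoft libraries and in EVstiff replicate 2, and were fewer in EVstiff replicates 1 and 3. The share of miR-152-3p in the reads of this pair had a 95% Wilson interval that lay above an even split in EVsoft replicate 1 (63.8%, from 50.9 to 74.9%) and EVstiff replicate 2 (73.7%, from 58 to 85.0%), and included it in the others.

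Relative to the other miRNAs, miR-148a-3p was higher in EVstiff, though its raw reads were not. Its level was 54937, 57117 and 63889 CPM in EVsoft replicates 1, 2 and 3, and 80224, 84087 and 85406 CPM in EVstiff replicates 1, 2 and 3. The lowest EVstiff library lay above the highest EVsoft library, so the groups did not overlap. The means were 58648 ± 4668 CPM (SD, n = 3) in EVsoft and 83239 ± 2693 CPM (SD, n = 3) in EVstiff. This was a 1.42-fold difference, a log2 fold change of 0.50 (standard error 0.09, 95% interval 0.30 to 0.71, edgeR adjusted p = 0.00294). The difference was larger than the spread between replicates but below the fold threshold of 0.58 on the log2 scale that is used here for a call. With both thresholds 0 of the 3 members were called, against 18.1% of the miRNAs tested. With the adjusted p alone, 1 of the 3 was higher in EVstiff, against 12.4% of those tested. The CPM of 1 of the 3 lay higher in EVstiff without overlap, which held for 22.9% of those tested.

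The raw reads of miR-148a-3p were not higher in EVstiff. They numbered 2536, 2350 and 4341 in EVsoft and 2443, 2373 and 2403 in EVstiff, with overlapping groups (exact permutation p = 0.4). The 3 EVstiff libraries lay within 2373 to 2443 reads, whereas EVsoft replicate 3, the library with the largest miRNA total, had the most. As shares of all miRNA reads, the EVsoft libraries held 5.53% (95% Wilson interval 5.32 to 5.74%), 5.99% (5.76 to 6.23%) and 6.54% (6.36 to 6.73%) of miR-148a-3p. The EVstiff libraries held 7.96% (7.66 to 8.27%), 8.27% (7.96 to 8.60%) and 8.09% (7.78 to 8.40%). When every library was given the same size, that is on raw reads, the log2 fold change of miR-148a-3p was -0.35 (standard error 0.30, adjusted p = 0.298), and the median over the 105 miRNAs tested shifted from -0.04 to -0.89. Measured from the median of all miRNAs tested, miR-148a-3p stood 0.54 higher with TMM, library size only, RLE and upper quartile scaling, and 0.53 higher on raw reads. Of the 105 miRNAs, 17 had a larger log2 fold change than miR-148a-3p. With no filter on low counts, where 464 miRNAs were tested, its adjusted p was 0.0674.

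**Figure D1:**
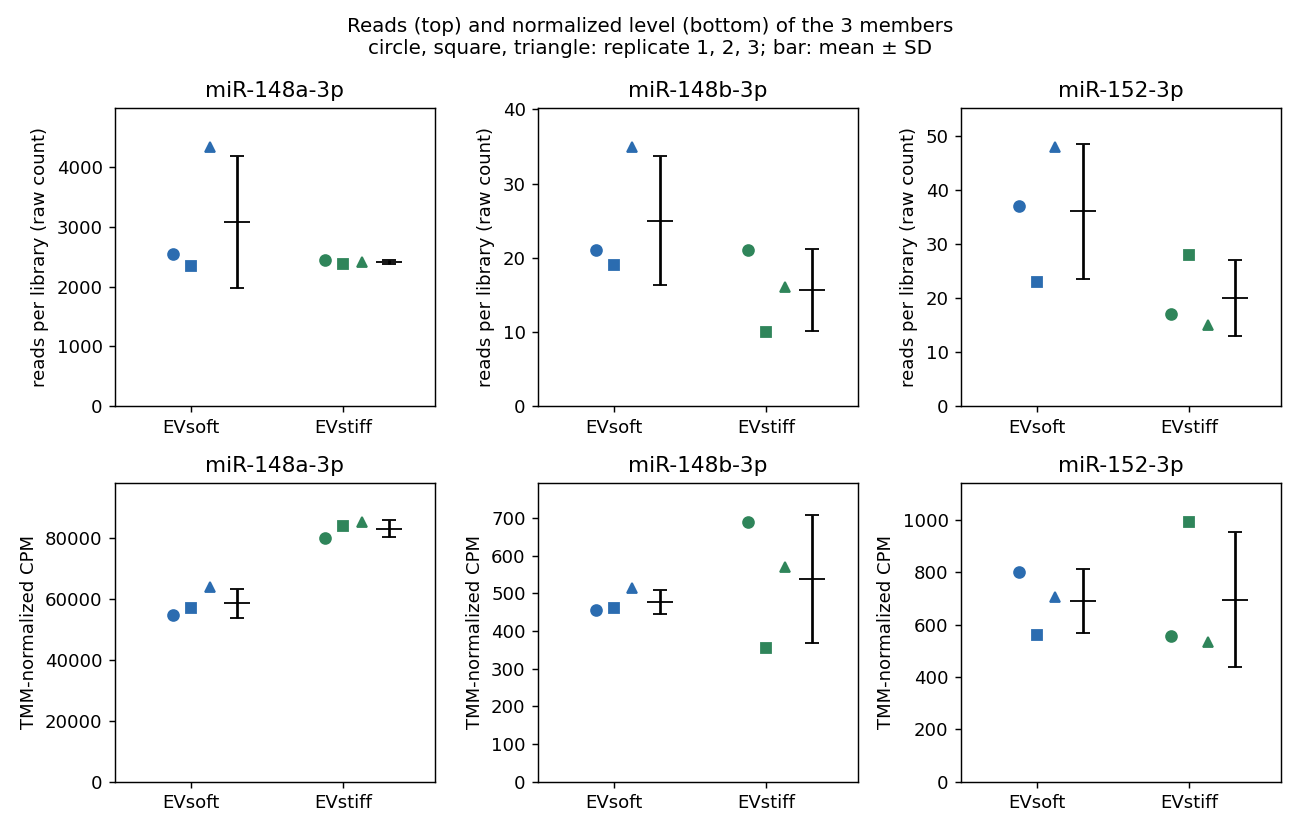
Reads per library (top) and TMM-normalized CPM (bottom) of the 3 members in each EVsoft and EVstiff library. Symbols mark replicates and bars the mean ± SD (n = 3). The CPM of miR-148a-3p, between 54937 and 63889 in EVsoft and between 80224 and 85406 in EVstiff, do not overlap, whereas its raw reads and both measures of the other members do.

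The level of miR-148b-3p did not differ detectably between the groups. It had 21, 19 and 35 reads in the EVsoft libraries, or 455, 462 and 515 CPM. In the EVstiff libraries it had 21, 10 and 16 reads, or 690, 354 and 569 CPM. The EVstiff libraries lay on both sides of the EVsoft range, with EVstiff replicate 1 the highest and EVstiff replicate 2 the lowest of all. The log2 fold change was 0.17 (standard error 0.34, 95% interval -0.59 to 0.93, edgeR adjusted p = 0.755), and it was -0.075 without EVstiff replicate 1. This interval holds both no change and the fold change of miR-148a-3p.

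The level of miR-152-3p did not differ detectably either. It had 37, 23 and 48 reads in the EVsoft libraries, or 802, 559 and 706 CPM. The EVstiff libraries had 17, 28 and 15 reads, or 558, 992 and 533 CPM. EVstiff replicate 2, in which miR-148b-3p was lowest, had the highest level of miR-152-3p, and the other EVstiff libraries lay just below the EVsoft range. The log2 fold change was 0.0033 (standard error 0.34, 95% interval -0.74 to 0.75, adjusted p = 0.992). Measured from the median of all miRNAs tested, it stood 0.043 higher with TMM and 0.046 higher with library size only. Without EVstiff replicate 2 the log2 fold change was -0.33.

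The spread of the low members was set beside that of counting. For miR-148b-3p the coefficient of variation of CPM was 6.90% in EVsoft and 31.6% in EVstiff, where counting alone gives 20% and 25.3% at these reads. For miR-152-3p it was 17.7% and 37.2%, against 16.7% and 22.4%. For miR-148a-3p it was 7.96% and 3.24%, against 1.80% and 2.04%. The spread of miR-148a-3p thus lay above that of counting in both groups, while the spread of the low members lay below it or near it in EVsoft and above it in EVstiff. Each spread rests on only 3 libraries, and whether it differed from that of counting was not tested. Of the 26 miRNAs tested with a mean below 30 reads per library, among which are miR-148b-3p and miR-152-3p, 3 had an adjusted p of at most 0.05, against 23.8% of all 105. Of the 11 with a mean over 1000 reads, among which is miR-148a-3p, 2 were higher and 2 lower at this threshold.

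**Figure D2:**
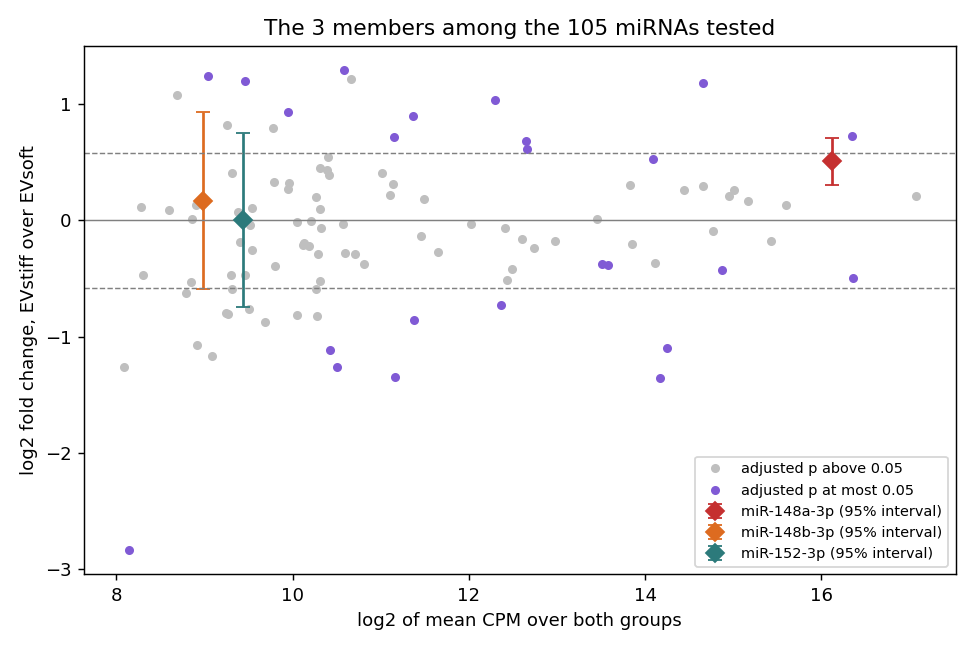
Log2 fold change (EVstiff over EVsoft, TMM) against log2 of the mean CPM for the 105 miRNAs tested, with the 3 members marked by diamonds and 95% intervals, and dashed lines at the fold threshold of 0.58. miR-148a-3p, at 0.50, has an interval above 0, and the intervals of miR-148b-3p and miR-152-3p span 0. On raw reads every member has a value below 0.

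The ratios between members do not depend on how libraries are scaled to each other. The log2 ratio of miR-148b-3p to miR-148a-3p (0.5 added to each count) was -6.88, -6.91 and -6.93 in EVsoft and -6.83, -7.82 and -7.19 in EVstiff. The EVsoft libraries lay close together and within the wider EVstiff range. The means were -6.91 ± 0.03 (SD, n = 3) and -7.28 ± 0.50 (SD, n = 3), a difference of -0.37 (exact permutation p = 0.4, or 0.6 after adjustment for the 3 ratios). The log2 ratio of miR-152-3p to miR-148a-3p was -6.08, -6.64 and -6.48 in EVsoft and -7.13, -6.38 and -7.28 in EVstiff. EVstiff replicates 1 and 3 lay below every EVsoft library and EVstiff replicate 2 lay within the EVsoft range. The means were -6.40 ± 0.29 (SD, n = 3) and -6.93 ± 0.48 (SD, n = 3), a difference of -0.52 (exact permutation p = 0.3, adjusted 0.6). For miR-152-3p to miR-148b-3p the difference was -0.16 (exact permutation p = 0.9, adjusted 0.9), and the 6 libraries ranged from -0.30 to 1.44. The ratios to miR-148a-3p were also computed after thinning every library to 28688 reads. The difference was then -0.22 for miR-148b-3p (exact permutation p = 0.6) and -0.38 for miR-152-3p (exact permutation p = 0.3). Thinning draws reads at random, so with so few reads of the low members these shifts cannot be told from chance in the draw. Each ratio thus differed by less than replicates allow to be told from 0, in a design where no p below 0.1 is possible.

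**Figure D3:**
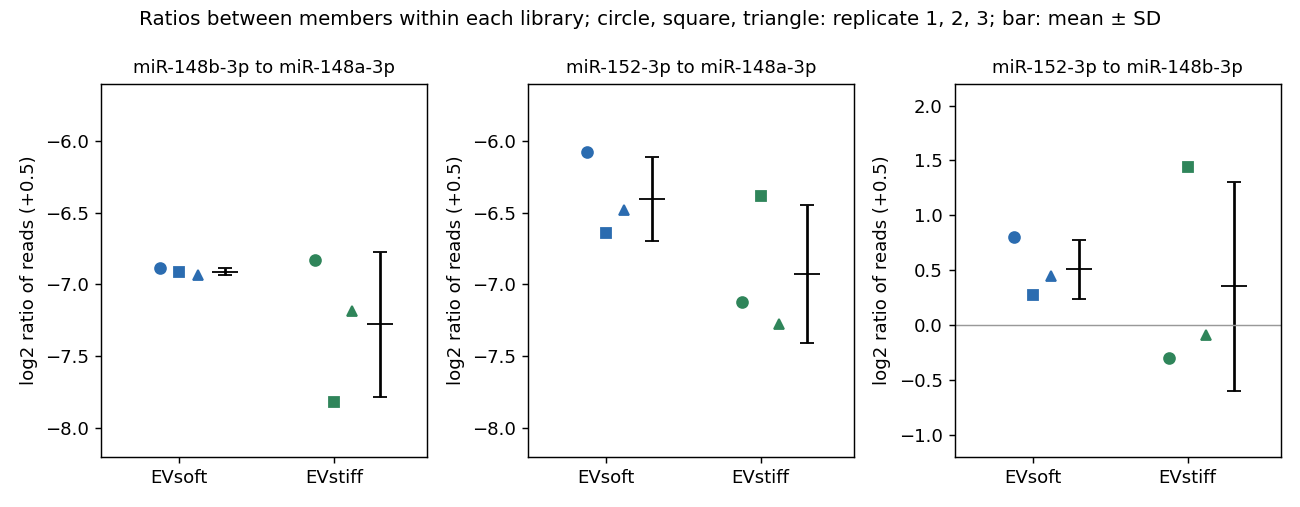
Log2 ratio of reads between the members in each library, with symbols for replicates and bars for the mean ± SD (n = 3). The ratio of miR-148b-3p to miR-148a-3p lies between -6.93 and -6.88 in EVsoft and between -7.82 and -6.83 in EVstiff, and the groups overlap for all 3 ratios.

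The same question was put to a fit across all miRNAs in which each library was scaled by its miR-148a-3p reads. Relative to miR-148a-3p, miR-148b-3p changed by -0.32 on the log2 scale (standard error 0.34, 95% interval -1.08 to 0.44, adjusted p = 0.446) and miR-152-3p by -0.50 (standard error 0.34, 95% interval -1.24 to 0.24, adjusted p = 0.234). Neither of these 2 members was lower with an adjusted p of at most 0.05, against 43.3% of the 104 miRNAs tested in this way, whose median was -0.56. Both intervals include 0, a change equal to that of miR-148a-3p, and reach below -1, which is a fall of 2-fold relative to it.

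Taken as one pool with a common seed, the family made up 5.66%, 6.10% and 6.67% of the miRNA reads in EVsoft and 8.09%, 8.40% and 8.19% in EVstiff. The means were 6.14% ± 0.51 (SD, n = 3) and 8.23% ± 0.16 (SD, n = 3), so that every EVstiff library lay above every EVsoft library (exact permutation p = 0.1). This pool follows miR-148a-3p, which holds nearly all of it. Within the pool, miR-148b-3p and miR-152-3p together made up 1.96% ± 0.25 (SD, n = 3) in EVsoft and 1.46% ± 0.16 (SD, n = 3) in EVstiff. The lowest EVsoft library was at 1.76% and the highest EVstiff library at 1.58%, so the groups were separate (exact permutation p = 0.1). This sum was not among the ratios planned, and after thinning every library to 28688 reads its difference moved from -0.50 to -0.33 percentage points (exact permutation p = 0.3).

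The other arm of the MIR148A hairpin was nearly without reads. Its product hsa-miR-148a-5p had 0 reads in the 3 EVsoft libraries and in EVstiff replicate 1, and 1 read in each of EVstiff replicates 2 and 3. In the 4 libraries with 0 reads, the limit of 3 reads allows it at most 0.127% of the reads of both arms. The 5p arms of the other hairpins were not analysed here, and no ratio of arms was computed.

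Other miRNAs that repress DNA methyltransferases were set beside the family. Of a list of 7 (miR-29a-3p, miR-29b-3p, miR-29c-3p, miR-185-5p, miR-342-3p, miR-143-3p and miR-126-3p), 2 passed the filter on low counts, and 0 had an adjusted p of at most 0.05 in either direction, against 23.8% of all tested, so that a count of 0 among 2 says little. The level of miR-29a-3p, which represses the de novo methyltransferases, was 1505 ± 233 CPM (SD, n = 3) in EVsoft and 1045 ± 282 CPM (SD, n = 3) in EVstiff, or -0.52 on the log2 scale (standard error 0.27, adjusted p = 0.172). That of miR-185-5p, which represses DNMT1, was 3515 ± 129 CPM (SD, n = 3) and 2909 ± 238 CPM (SD, n = 3), or -0.27 on the log2 scale (standard error 0.16, adjusted p = 0.21). The CPM of miR-185-5p lay lower in EVstiff without overlap, whereas the groups overlapped for miR-29a-3p. The share of all miRNAs tested that lay lower without overlap is not given here. Their median log2 fold change was -0.40, where that of all miRNAs tested was -0.04. The other 5 had at most 10 reads in any library.

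A second list held miRNAs whose seed is that of the family shifted by one base, so that they share a core of the target site. One of them is shown with the shared bases in capitals at bases 2 to 7.
hsa-miR-130b-3p: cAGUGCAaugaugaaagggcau
Of the 5 miRNAs on this list, miR-130a-3p and miR-130b-3p had between 0 and 5 reads per library and miR-454-3p at most 1, and 0 passed the filter. The remaining 2, miR-301a-3p and miR-301b-3p, had no row under these names.

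The miRNAs whose log2 CPM followed miR-148a-3p most closely over the 6 libraries were miR-320d (Pearson r = 0.98), miR-149-5p (0.96) and miR-125a-3p (0.95). These are descriptions, as the 6 points fall into the 2 groups and share their library totals. Of these, miR-320d rose in EVstiff (log2 fold change 0.93, edgeR adjusted p = 0.0226). The values of miR-149-5p and miR-125a-3p were 1.07 (adjusted p = 0.0739) and 0.40 (adjusted p = 0.314). For miR-148b-3p the closest were miR-224-5p (0.84), miR-1307-3p (0.68) and miR-941 (0.68), and for miR-152-3p they were miR-146b-5p (0.82), miR-22-3p (0.69) and miR-99a-5p (0.63). With 10 to 48 reads per library behind the low members, such correlations are weak descriptions.

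Markers of other tissues were summed in each library. Of 4 liver and gut miRNAs, 3 had a row, and their summed level was between 3517 and 5979 CPM in EVsoft and between 7499 and 8611 CPM in EVstiff, without overlap. Most of it was miR-122-5p, the liver miRNA, which rose by 1.03 on the log2 scale (adjusted p = 0.00294). By contrast miR-192-5p changed by -0.20 on the log2 scale (edgeR adjusted p = 0.681). The mean of miR-194-5p, with 1 to 9 reads per library, was 146 CPM in EVsoft and 93.8 CPM in EVstiff. The summed level of this list thus moved the same way as miR-148a-3p, but of its members with a row only miR-122-5p did. The part of this list in the result was not tested. Of 7 blood and platelet miRNAs, 5 had a row, with sums between 456 and 1531 CPM in EVsoft and between 361 and 2020 CPM in EVstiff, and miR-223-3p had at most 1 read. Of 5 fibroblast and smooth muscle miRNAs, 4 had a row, each with at most 5 reads in a library (miR-143-3p is also on the list of methyltransferase repressors), and the sums reached 86.7 CPM in EVsoft and 178 CPM in EVstiff. Of the epithelial miRNAs, 8 had a row and 6 were tested, of which 3 were lower and 0 higher with an adjusted p of at most 0.05 (11.4% and 12.4% of all tested), with sums from 61224 to 71033 CPM in EVsoft and from 53067 to 54676 CPM in EVstiff. The lower ones were miR-200a-3p, miR-200b-3p and miR-200c-3p. On the same list miR-203a-3p (log2 fold change 1.21, adjusted p = 0.127) and miR-205-5p (0.20, adjusted p = 0.168) had higher CPM in EVstiff without overlap but did not pass the test. In the other direction, miR-429 (-0.76, edgeR adjusted p = 0.0745) had lower CPM in EVstiff without overlap and did not pass it either.

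**Figure D4:**
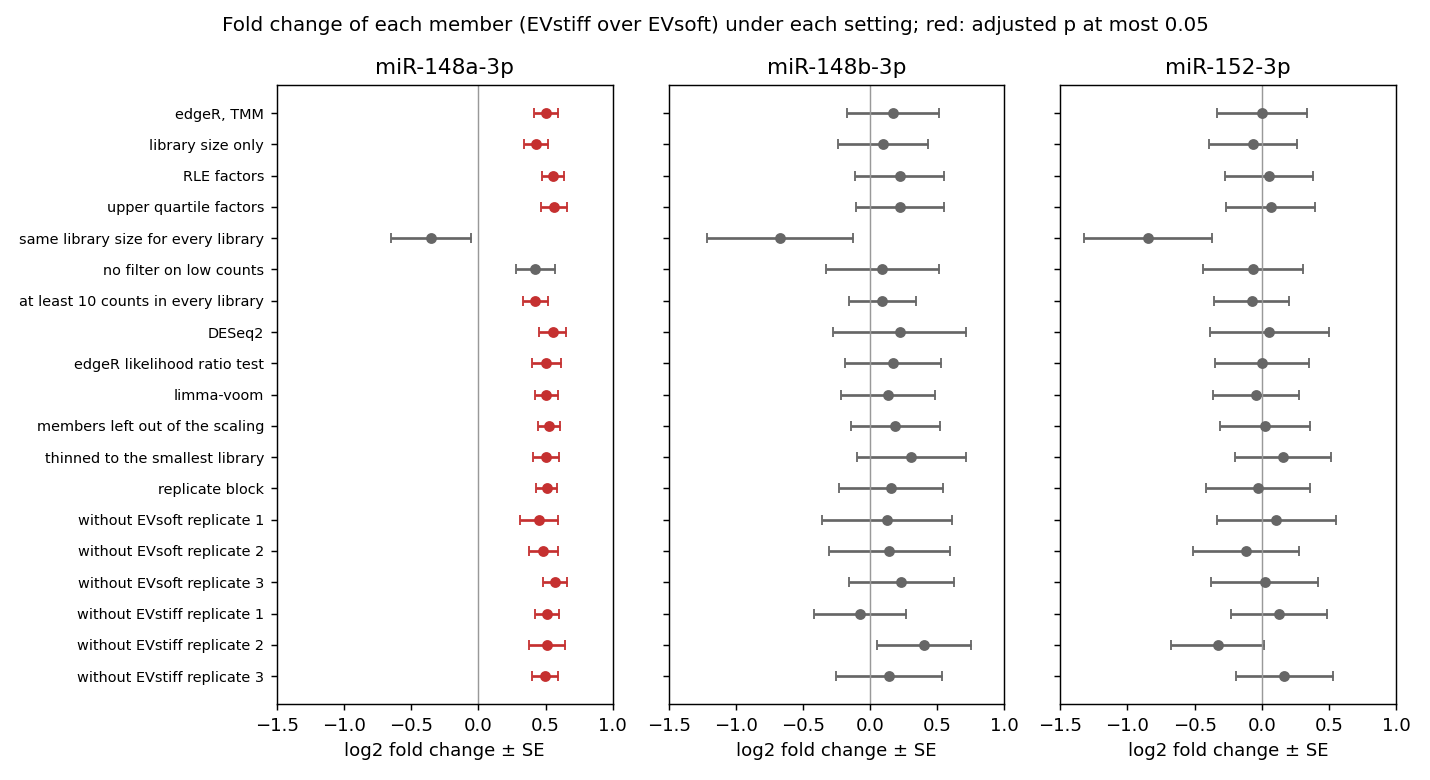
Log2 fold change of each member (EVstiff over EVsoft) with its standard error under every setting tried, in red where the adjusted p was at most 0.05. miR-148a-3p lies between 0.42 and 0.57 in each setting but the one on raw reads, where it is -0.35. The values of miR-148b-3p and miR-152-3p lie on both sides of 0.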

How the data were processed

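EV small RNA libraries of Cal27 spheroids were sequenced, 3 per group, and groups were taken from the sample labels. The authors deposited raw read counts per miRNA, made with the exceRpt pipeline and RefSeq features; hg38 is named in the submitters' processing notes, and aligner and removal of duplicates are not given in the sources used here. Counts were used as deposited, over 28688 to 66345 miRNA reads per library.

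The test was edgeR 4.0.16 under R 4.3.3 (filterByExpr, TMM on library totals, glmQLFit, glmQLFTest, Benjamini-Hochberg over the 105 miRNAs tested). A call needed an adjusted p of at most 0.05 and a log2 fold change beyond 0.58 in either direction. Standard errors are the log2 fold change over the square root of F. Single values were compared with exact two-sided permutation tests. Alternatives used limma 3.58.1, DESeq2 1.42.0, other scalings and filters, thinning, a replicate block and leaving out each library. The procedure was also run on simulated data, but the outcome is not given here and no result rests on it.

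The members, the lists and the thresholds were chosen with earlier results of these data known. Named are the members, the other arm, the 3 miRNAs closest to each member, the tested miRNAs of both lists and the markers. The number of low and high counts, and the sum of the low members, were added after seeing the data.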

Additional observations from a re-analysis of the deposited data

How the results depend on the processing

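Of 18 alternatives, 16 left the direction of miR-148a-3p and its adjusted p at most 0.05 as they were. The exceptions were no filter on low counts (log2 fold change 0.42, adjusted p = 0.0674) and the same library size for every library (-0.35). In the latter, miR-148b-3p was -0.67 and miR-152-3p -0.84, and 57 miRNAs were called instead of 19 (or 25 by adjusted p alone), 57 lower and 0 higher, with 0 higher at an unadjusted p under 0.05 by edgeR. Of the calls, 11 were higher and 8 lower, against 8 and 11 with library size only, 8 and 8 with the replicate block and 10 and 12 with at least 10 counts in every library. The sign of miR-152-3p, whose value is 0.0033, also turned with library size only (-0.067), no filter (-0.065), at least 10 counts in every library (-0.076), limma-voom (-0.040), the replicate block (-0.027), and without EVsoft replicate 2 (-0.12) or EVstiff replicate 2 (-0.33). From the median of all miRNAs tested, miR-152-3p stood 0.043 higher with TMM and 0.046 with library size only. The cause of the other changes was not tested.

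Leaving out one library gave 0.45 to 0.57 for miR-148a-3p (adjusted p from 0.00204 to 0.024), -0.075 (without EVstiff replicate 1) to 0.40 for miR-148b-3p and -0.33 to 0.17 for miR-152-3p. It gave -0.59 to -0.10 for the log2 ratio of miR-148b-3p to miR-148a-3p, -0.80 to -0.35 for miR-152-3p to miR-148a-3p, and -0.70 to 0.17 for miR-152-3p to miR-148b-3p, which was above 0 without EVstiff replicate 1 (0.17) or EVstiff replicate 3 (0.06). The difference in the family's share was 1.84 to 2.35 percentage points, and 13 to 19 miRNAs were called.

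Replicate numbers are shared by the groups, but deviations of same-numbered libraries correlated at -0.13, 0.13 and -0.03, so the numbers were not taken as pairs. With a replicate block miR-148a-3p was 0.51 (adjusted p = 0.00678), miR-148b-3p 0.15, and relative to miR-148a-3p no call changed. The alternatives for arm ratios gave no value, since miR-148a-5p had at most 1 read in a library and the other 5p arms were not analysed here. At 10 to 48 reads per library, low counts limit what can be said of miR-148b-3p and miR-152-3p.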
